A study of Mus musculus with 12 samples.

Results

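The genes described here are 10 cell-surface receptors with which macrophages bind and take up dying cells, modified lipoproteins and other particles: Mertk, Axl, Tyro3, Timd4, Stab1, Msr1, Marco, Mrc1, Cd36 and Scarb1. They were chosen by name, and each had to be the only gene symbol of a transcript cluster, the unit for which each array gives 1 value. All 10 met this rule with 1 cluster each, among 14860 genes measured this way and 23332 transcript clusters in all. The cells were macrophages grown from bone marrow of male Balb-C mice aged 8 to 9 weeks in the presence of CSF1, the growth factor of this lineage, and every group shared this strain and culture with no allele named in the labels. They were collected before treatment (0 h) or at 1, 2, 4, 8 or 24 h after addition of interferon-beta (Ifn-β, recombinant mouse protein, 10 U/ml), with 2 arrays at each time and 12 in all. Levels are log2 values from Affymetrix Mouse Exon 1.0 ST arrays, so a difference of 1 is a doubling. No untreated culture of a later time was analysed here, so time in culture and time after Ifn-β cannot be told apart. The labels speak of biological replicates and also of separate wells as the source of the RNA, so p-values measure the spread between these samples, which may be technical.

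Clearance of dying cells by phagocytes is called efferocytosis. A dying cell exposes the lipid phosphatidylserine on its surface, and a phagocyte recognises it either directly, as Timd4 and Stab1 do, or through bridging proteins such as Gas6 and protein S, which link it to the receptor tyrosine kinases Tyro3, Axl and Mertk (the TAM family). TAM receptors are also known for damping inflammatory signalling in macrophages. Scavenger receptors such as Msr1, Marco and Cd36 bind modified lipoproteins, microbes and debris, and their uptake loads the cell with lipid that has to be stored or exported.

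The cultures had the profile of macrophages and responded to Ifn-β. Array medians lay between 5.84 and 5.90 and upper quartiles between 7.77 and 8.15, with no array standing clearly apart, although array 12 at 2 h had the lowest upper quartile (arrays carry the number given in their labels). At 0 h, the 5 measured macrophage markers had mean levels from 9.86 to 13.23, whereas 25 markers of 8 other cell types had mean levels from 2.45 to 6.82. One of the latter, the endothelial receptor gene Kdr, was called higher at all 5 times and ranged from 6.54 to 10.14 over the arrays, whereas Cdh5, Tek and Pecam1, also endothelial, were called at none and stayed at or below 5.36. Kit, a mast cell marker, was called at 1 time and the remaining markers of other cell types at none. Of the macrophage markers, the Fc receptor gene Fcgr1 was called higher at all 5 times (9.78 to 12.34 over the arrays) and the others at none. Mx1, an antiviral gene induced by interferon, rose by 5.20 on the log2 scale at 4 h (SE 0.13, adjusted p = 2.30e-07). Since RNA was taken from whole cultures, fewer cells of a type and less RNA per cell cannot be told apart for any gene below.

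Among the receptors, Axl and Timd4 rose, Stab1 fell, and Mrc1 was higher at 24 h than at 2, 4 and 8 h, while the other 6 did not pass the test between any pair of the 6 times. A gene is called at a time if limma gave an adjusted p under 0.05 (Benjamini-Hochberg over all transcript clusters) and its mean differed from 0 h by at least 1.5-fold. No receptor was called at 1 h, where 0.549% of all transcript clusters were, or at 2 h, where 2.16% were. At an unadjusted p under 0.05, whatever the fold, 1 receptor passed at 1 h (6.34% of all transcript clusters) and 2 passed at 2 h (13.0%). At 4 h, 3 of the 10 were called against 7.54% of all transcript clusters, 2 of them higher (background 3.59%) and 1 lower (3.95%). At 8 h, 2 were called against a background of 2.04%, both of them higher. At 24 h, 2 were called against a background of 1.45%, 1 higher (0.613%) and 1 lower (0.836%). Over the whole course 3 receptors were called at some time, as were 9.12% of all transcript clusters, and 4 passed a moderated F test over the 6 times, as did 7.97%. The median change of the 10 receptors stayed between -0.01 and 0.09 at the 5 times, close to the median of all transcript clusters, which lay between -0.07 and 0.02.

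**Figure D1:**
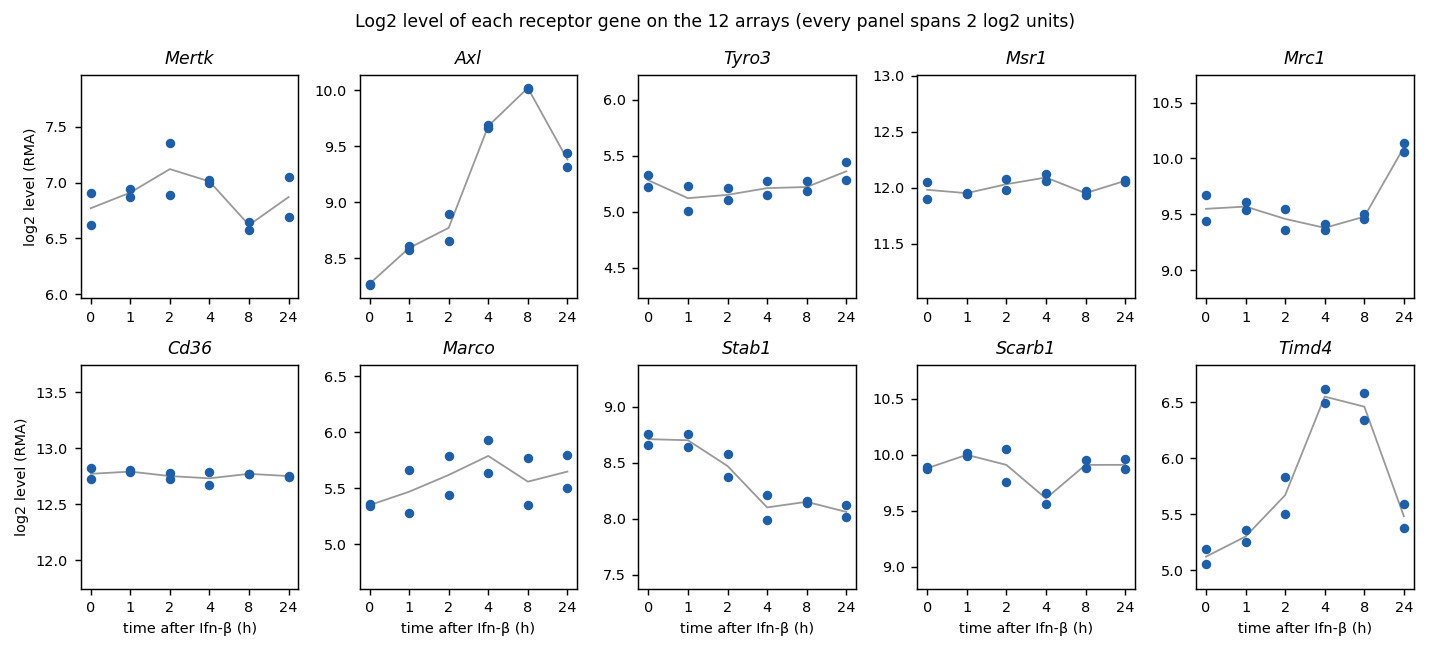
Log2 level (RMA) of each of the 10 receptor genes against time after Ifn-β in hours, spaced evenly; points are single arrays (2 per time), the line joins the means, and every panel spans 2 log2 units so that slopes can be compared. Axl climbs from 8.26 and 8.27 (0 h) to 10.02 and 10.01 (8 h) and Timd4 from 5.19 and 5.05 to 6.62 and 6.49 (4 h), whereas the 12 arrays of Cd36 lie between 12.67 and 12.82.

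The regions just upstream of the receptors that rose are shown first, since type I interferon acts on many of its targets through short promoter elements. RefSeq promoter windows (GRCm38.p6, 250 bases before to 50 after the annotated start) were found for 8 of the 10 genes. The Axl window is chr7:25788684-25788983 on the minus strand and the Timd4 window is chr11:46810549-46810848 on the plus strand. Both are printed 5′ to 3′, and capitals mark the only motif match found in them.
Axl: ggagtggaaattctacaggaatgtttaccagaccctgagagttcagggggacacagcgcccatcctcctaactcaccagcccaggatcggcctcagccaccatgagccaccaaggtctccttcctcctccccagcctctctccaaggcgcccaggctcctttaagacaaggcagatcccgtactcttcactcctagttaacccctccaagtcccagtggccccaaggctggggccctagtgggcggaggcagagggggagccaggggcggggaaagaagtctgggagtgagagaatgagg
Timd4: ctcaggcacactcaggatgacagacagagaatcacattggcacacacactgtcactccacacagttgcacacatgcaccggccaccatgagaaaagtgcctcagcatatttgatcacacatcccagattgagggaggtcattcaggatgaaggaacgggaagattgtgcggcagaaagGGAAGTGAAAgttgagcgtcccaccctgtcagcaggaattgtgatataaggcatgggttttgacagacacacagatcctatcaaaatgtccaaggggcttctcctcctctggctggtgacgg
None of the 8 windows held the interferon-stimulated response element searched as GAAA, any 2 bases and GAAA on either strand, which 3.44% of 32851 promoter windows hold. None held the STAT element searched as TTC, any 3 bases and GAA (8.3% of windows) or a liver X receptor element of AGGTCA repeated after 4 bases (0.0152%, or 0.25% with 1 mismatch allowed). The Timd4 window held GGAA, any 2 bases and GAAA, the pattern of an ETS-IRF composite element, starting at position -72 from the annotated start, as 2.72% of windows do. This last motif was searched after the window had been read. A match is a description of the letters and no evidence of binding, and a window without one says nothing of sites elsewhere.

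Among the TAM receptors, only Axl was called. Axl binds Gas6 and is best known in macrophages under inflammatory conditions. Its level (transcript cluster 6965982) was 8.26 and 8.27 (0 h), 8.57 and 8.61 (1 h), 8.89 and 8.65 (2 h), 9.69 and 9.66 (4 h), 10.02 and 10.01 (8 h), 9.44 and 9.31 (24 h). Both arrays of every later time lay above both 0 h arrays, and the arrays of no 2 times overlapped. Against 0 h, Axl was 2.66-fold higher at 4 h (log2 change 1.41, SE 0.11, adjusted p = 1.08e-04) and 3.36-fold higher at 8 h (95% interval 2.83 to 3.99, adjusted p = 6.47e-05). At 24 h it was still 2.16-fold higher (log2 change 1.11, adjusted p = 0.00342). This last call was lost when only the arrays of 0 and 24 h were fitted (adjusted p = 0.122). The early differences did not pass the test, with log2 changes of 0.33 at 1 h (adjusted p = 0.519) and 0.51 at 2 h (adjusted p = 0.0598), but without array 12 the change at 2 h was 0.63 and was called (adjusted p = 0.0209).

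The order of the Axl means was 8, 4, 24, 2, 1 and 0 h, from highest to lowest. Of the neighbours in this order, 24 h and 2 h differed (0.60, adjusted p = 0.0248, background 2.79%), whereas 8 h and 4 h (0.34, 95% interval 0.09 to 0.59, adjusted p = 0.161) and 4 h and 24 h (0.30, adjusted p = 0.15) missed the adjusted threshold, although their arrays did not overlap. The steepest step between successive times was that from 2 to 4 h, a log2 difference of 0.90 (adjusted p = 0.00706, background of pairs passing 2.33%), lost without array 15 or 16 (adjusted p up to 0.0783). Between 8 and 24 h Axl came down, with a log2 change of -0.64 (adjusted p = 0.0341), in a comparison that 1.29% of transcript clusters passed. That fall and the difference between 24 and 2 h were each lost on leaving out nearly any array. The first was lost without arrays 2, 4, 5, 8, 15, 16, 18, 23, 17 or 22, the second without the same arrays or array 12. The changes then ran from -0.70 to -0.57 and from 0.48 to 0.72. Here and below, an array of a time not compared enters only through the shared spread and the adjustment. Leaving it out alters the adjusted p but not the change.

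Mertk, the TAM receptor most linked to routine clearance of dying cells by macrophages, was not called at any time. Its level (cluster 6881087) was 6.91 and 6.62 (0 h), 6.94 and 6.87 (1 h), 7.35 and 6.89 (2 h), 7.02 and 7.00 (4 h), 6.65 and 6.58 (8 h), 7.05 and 6.69 (24 h). Some of these arrays lay inside the range of the markers of other cell types (2.45 to 6.82 at 0 h), the others above it. The 0 h arrays overlapped those of every time but 4 h. The largest change was 0.35 at 2 h, with a 95% interval from -0.06 to 0.77 (adjusted p = 0.476), whose upper end is a 1.71-fold rise. At 8 h the interval ran from -0.57 to 0.27.

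Tyro3, the third TAM receptor, lay low on these arrays. Its 12 values (cluster 6880544) ran from 5.01 to 5.44 with a median of 5.22, inside the range of the markers of other cell types, so a low level of transcript cannot be told from background. At 0 h the arrays read 5.22 and 5.33, and at 24 h, the time with the highest mean, 5.28 and 5.44. No change from 0 h was larger in size than the -0.15 at 1 h (95% interval -0.43 to 0.12, adjusted p = 0.998).

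Timd4, which tethers phosphatidylserine and is known as a receptor of resident macrophages, rose and came back. Its level (cluster 6780572) was 5.19 and 5.05 (0 h), 5.36 and 5.25 (1 h), 5.83 and 5.50 (2 h), 6.62 and 6.49 (4 h), 6.58 and 6.34 (8 h), 5.59 and 5.38 (24 h). All Timd4 values, up to the highest of 6.62, lay in the range of the markers of other cell types (2.45 to 6.82 at 0 h). A low level there cannot be told from background, and folds against 0 h are given as measured. The 4 and 8 h arrays stood above those of all other times without overlap. Timd4 was 2.70-fold higher at 4 h than at 0 h (95% interval 2.13 to 3.43, log2 change 1.44, SE 0.15, adjusted p = 7.19e-04). At 8 h it was 2.53-fold higher (95% interval 1.99 to 3.21, log2 change 1.34, adjusted p = 0.00225), a call lost when only 0 and 8 h arrays were fitted (adjusted p = 0.0675). The changes at 2 h (0.54, adjusted p = 0.138) and 24 h (0.36, adjusted p = 0.341) did not pass.

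By 24 h Timd4 had come down. It was lower at 24 h than at 4 h by a log2 change of -1.07 (adjusted p = 0.00361, background 8.60%), and this held without any single array. Against 8 h the change at 24 h was -0.97 (adjusted p = 0.0223), lost without array 18, 23, 17 or 22 (adjusted p up to 0.192). For Axl the change from 4 to 24 h was -0.30 (adjusted p = 0.15). The difference between the courses of these genes was not itself tested. In the order of the Timd4 means, 4, 8, 2, 24, 1 and 0 h, only 8 and 2 h passed the test as neighbours (0.80, adjusted p = 0.0406, background 1.86%), and that difference was lost without any one of 11 arrays, array 10 being the exception (adjusted p up to 0.253).

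Stab1, stabilin-1, binds phosphatidylserine as well as modified lipoproteins, and it was the receptor that fell. Its level (cluster 6823709) was 8.76 and 8.66 (0 h), 8.76 and 8.64 (1 h), 8.58 and 8.37 (2 h), 7.99 and 8.21 (4 h), 8.16 and 8.14 (8 h), 8.12 and 8.01 (24 h). All arrays from 4 h on lay below all earlier arrays, and those of 4, 8 and 24 h lay close together. Stab1 was 1.53-fold lower than at 0 h at 4 h (log2 change -0.61, SE 0.12, adjusted p = 0.0176) and 1.56-fold lower at 24 h (-0.65, adjusted p = 0.0448). The change at 8 h, -0.56, did not pass (adjusted p = 0.0632). Against 1 h, Stab1 was lower at 4 h (-0.60, adjusted p = 0.0222, background 7.69%) and at 24 h (-0.64, adjusted p = 0.0388, background 2.12%).

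The Stab1 calls sat close to the thresholds. The 4 h call was lost without array 2, 4 or 15 (adjusted p up to 0.133), when only the 0 and 4 h arrays were fitted (adjusted p = 0.0845), and where another scaling brought the change to -0.50 (quantile normalization applied again) or -0.56 (arrays centred on their medians), under 1.5-fold. The 24 h call was lost without any one of arrays 2, 4, 5, 8, 15, 16, 18, 23, 17 and 22 (adjusted p up to 0.266). The F test of Stab1 over the 6 times (adjusted p = 0.0235) failed without any one of the same 10 arrays (adjusted p up to 0.0772). The calls against 1 h were lost without arrays 5, 8, 15 or 16 at 4 h (adjusted p up to 0.162) and without any of those 10 arrays at 24 h (up to 0.251). The change was below 0 in every alternative for 4 and 24 h.

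**Figure D2:**
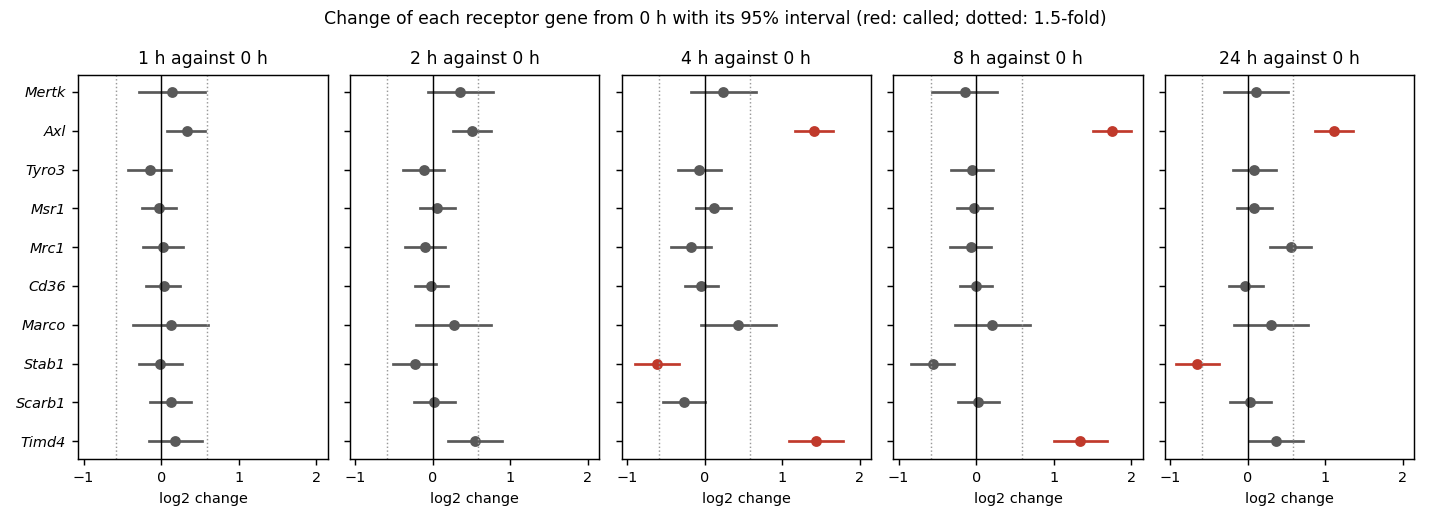
Log2 change of each receptor gene from 0 h (x axis) at 1, 2, 4, 8 and 24 h, each in a panel of its own, with the 95% interval from the fit over 12 arrays as a bar; red marks called changes and dotted lines mark 1.5-fold in each direction. Axl and Timd4 stand to the right at 4 and 8 h (1.41 and 1.44, then 1.75 and 1.34) and Stab1 to the left at 4 h (-0.61) and 24 h (-0.65).

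Mrc1 encodes the mannose receptor CD206, an endocytic receptor for glycoproteins and a common marker of alternatively activated macrophages. Its level (cluster 6875181) was 9.67 and 9.44 (0 h), 9.54 and 9.61 (1 h), 9.55 and 9.36 (2 h), 9.36 and 9.41 (4 h), 9.50 and 9.46 (8 h), 10.14 and 10.06 (24 h). Both 24 h arrays lay above the other 10, which ran from 9.36 to 9.67. The change of 0.55 from 0 h, a 1.46-fold rise, did not pass (SE 0.12, 95% interval 0.28 to 0.81, adjusted p = 0.0667). Under 9 other settings its adjusted p ran from 0.0101 to 0.216. Mrc1 was higher at 24 h than at 4 h (0.71, adjusted p = 0.00695), at 2 h (0.65, adjusted p = 0.0249) and at 8 h (0.62, adjusted p = 0.0472). With only the 2 times compared in the fit, the differences from 2 and 8 h were lost (adjusted p = 0.376 and 0.157). With arrays weighted in the fit, that from 2 h was lost (adjusted p = 0.0983). The difference from 4 h was lost without array 15 or 17 (adjusted p up to 0.0638), that from 2 h without arrays 5, 8, 12, 15, 16, 18, 23, 17 or 22 (up to 0.179), and that from 8 h without any one of 10 arrays, all but 10 and 12 (up to 0.275). The F test over the 6 times (adjusted p = 0.0361) failed without arrays 5, 8, 15, 16, 18, 23, 17 or 22 (up to 0.222).

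The class A scavenger receptors bind polyanionic ligands such as acetylated lipoproteins and bacterial surfaces, and neither Msr1 nor Marco was called. Msr1 (cluster 6981823) read 12.05 and 11.90 (0 h) and stayed between 11.90 and 12.12 on all 12 arrays. Its changes from 0 h ran from -0.03 to 0.12, and the widest departure, at 4 h, had a 95% interval from -0.11 to 0.34 that does not reach 1.5-fold. Marco (cluster 6761701), a receptor for bacteria and inhaled particles, lay between 5.28 and 5.93, a level also seen for markers of other cell types. Its arrays spread more widely than those of any other of the 10 receptors, with a mean SD within a time of 0.21. At 4 h the arrays read 5.64 and 5.93 against 5.34 and 5.36 (0 h), a change of 0.43 with a 95% interval from -0.05 to 0.92 (adjusted p = 0.263), whose upper end is a 1.89-fold rise.

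The class B receptors take up lipid. Cd36 (cluster 6936406), a receptor for oxidised lipoprotein, fatty acids and thrombospondin, read 12.82 and 12.72 (0 h), 12.79 and 12.67 (4 h), 12.75 and 12.74 (24 h). Its 12 arrays spanned 0.15, the narrowest range of the 10 receptors, and its changes ran from -0.04 to 0.03, with the 95% interval at 4 h reaching from -0.25 to 0.17. Scarb1 (cluster 6941934), the receptor for high-density lipoprotein, read 9.89 and 9.87 (0 h), 10.02 and 9.99 (1 h), 10.05 and 9.76 (2 h), 9.56 and 9.66 (4 h), 9.88 and 9.95 (8 h), 9.96 and 9.87 (24 h). Both 4 h arrays were below all others, yet the change of -0.27 did not pass (95% interval -0.54 to 0.00, adjusted p = 0.21).

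For each receptor called against 0 h, the genes with the most similar course were found by Pearson correlation over the 12 arrays, which share their times and processing. For Axl they were Ms4a6c (r = 0.988), Hpse (0.981) and Ly86 (0.978). For Timd4 they were Tapbpl (0.991), Tap2 (0.989) and Mlkl (0.984), of which Tap2 is a subunit of the peptide transporter that feeds MHC class I. For Stab1 they were Pimreg (0.981), Chtf18 (0.980) and Tcf19 (0.980). At 4 h the log2 changes of Tapbpl, Tap2 and Mlkl were 2.27, 1.76 and 1.99, beside the measured 1.44 of Timd4.

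Of the proteins that bridge receptors to phosphatidylserine, 8 were measured and 2 were called at some time, both higher, beside 4.19% of all transcript clusters called higher at some time and 4.96% called lower. Gas6, the ligand of the TAM receptors, read 9.94 and 9.91 (0 h), 9.39 and 9.55 (4 h), 9.62 and 9.61 (8 h), 10.59 and 10.52 (24 h). Both 24 h arrays were above all others. Against 0 h the change was -0.45 at 4 h, short of 1.5-fold, and 0.63 at 24 h (SE 0.12, adjusted p = 0.0437), a call lost without any one of 10 arrays, all but 10 and 12 (adjusted p up to 0.251). Against 4 h it was higher at 24 h by 1.08 (adjusted p = 9.34e-04) whichever array was left out. Thbs1, thrombospondin, which links dying cells to Cd36, rose 7.09-fold at 4 h (log2 change 2.83, adjusted p = 1.44e-05) and 3.19-fold at 8 h (1.68, adjusted p = 6.68e-04). At 24 h its arrays read 6.61 and 6.67, beside 6.72 and 6.68 (0 h). Protein S (Pros1), Mfge8, Lgals3 and the complement genes C1qa, C1qb and C1qc were called at no time.

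Among the other receptors and sensors of dying cells, falls outnumbered rises at 2, 4 and 8 h. At 24 h none was called lower and 1 higher, with a median change of 0.13. The list was chosen with earlier results of these data known. Of 19 measured, 6 were called lower at some time (4.96% of all transcript clusters) and 1 higher (4.19%), and the list's median change at 4 h was -0.30 beside -0.07 over all transcript clusters. S1pr1, a receptor for the find-me lipid sphingosine-1-phosphate, went from 9.58 and 9.40 (0 h) to 7.31 and 7.05 (4 h), a 4.96-fold fall (log2 change -2.31, SE 0.16, adjusted p = 5.21e-05), and back to 9.66 and 9.58 (24 h). The nucleotide receptor P2ry6 (-0.78), the endocytic receptor Lrp1 (-0.81) and the lipopolysaccharide co-receptor Cd14 (-0.76) were also called lower at 4 h, the first and the second not without array 2 or 15 (adjusted p up to 0.0693 and 0.0529). The fractalkine receptor Cx3cr1 was called lower at 8 h (-1.11, adjusted p = 0.0284), which was lost without array 2, 4, 15, 16, 18, 23, 17 or 22 (adjusted p up to 0.206). Within the Cd300 family of lipid-binding receptors the directions differed. Cd300lf was higher from 2 to 24 h, with a maximum of 1.49 at 4 h (adjusted p = 1.69e-04), and its 24 h call was lost without array 2, 4, 17 or 22 (adjusted p up to 0.132). Cd300lb was lower at 2 h (-0.96, adjusted p = 0.00364).

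Signals that restrain or assist uptake were measured by 7 genes. Of these, 2 were called higher at some time (4.19% of all transcript clusters) and 1 lower (4.96%). Cd47, the do-not-eat-me ligand, was higher at 4 h (0.95, adjusted p = 5.87e-04) and 8 h (0.97, adjusted p = 0.00108). Siglec1, the sialic acid receptor CD169, rose late, with arrays at 6.80 and 6.83 (0 h), 6.99 and 7.02 (4 h), 7.49 and 7.58 (8 h), 8.04 and 7.94 (24 h). Its change was 0.72 at 8 h (adjusted p = 0.00726, lost without array 2, 4, 18 or 23, up to 0.0853) and 1.18 at 24 h (adjusted p = 0.00193). Pilra, an inhibitory receptor, was lower at 8 h (-1.10, adjusted p = 0.00333) and at 4 h (-0.76, adjusted p = 0.00965, lost without array 2, 15 or 16, up to 0.0764). Sirpa, the receptor of Cd47, was not called against 0 h.

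**Figure D3:**
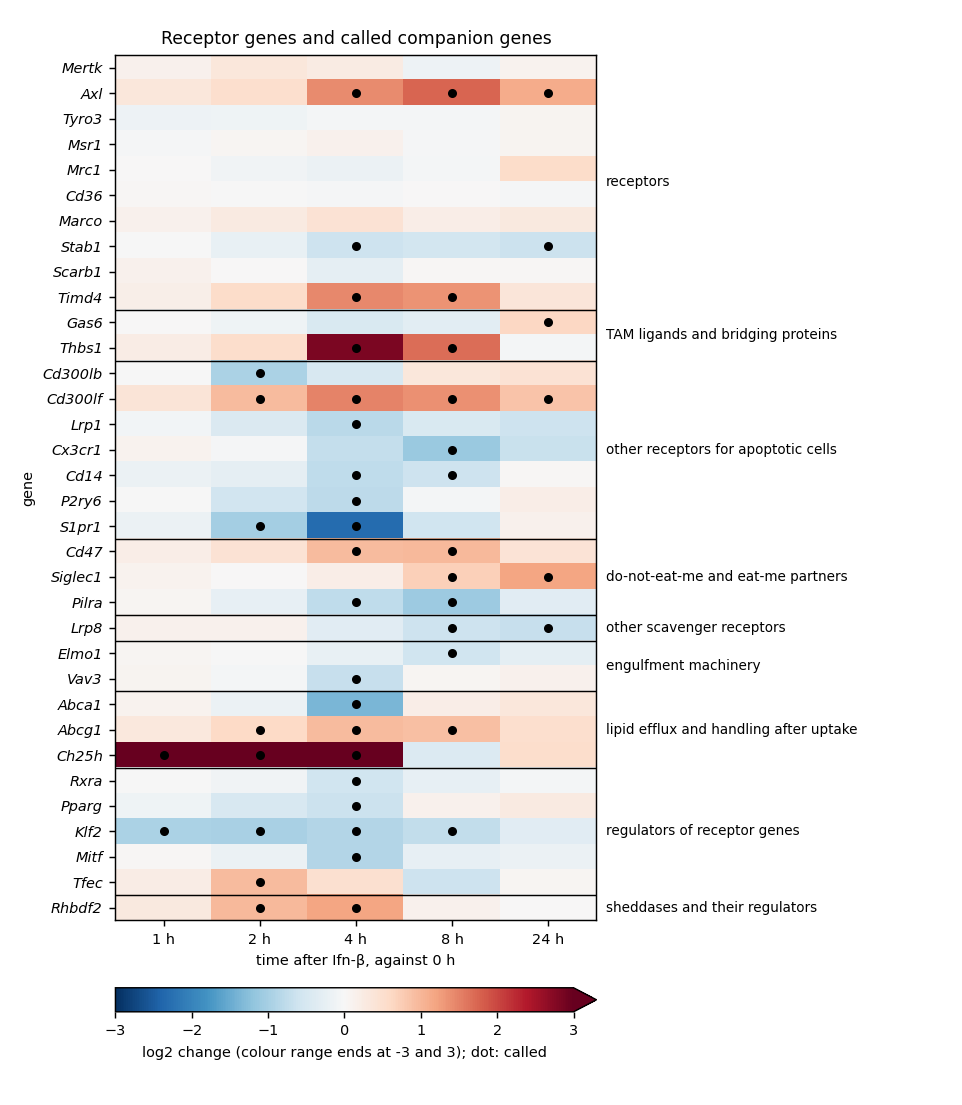
Log2 change from 0 h (colour, blue lower and red higher, range ending at -3 and 3) of the 10 receptor genes and of every companion gene called at some time apart from the interferon checks, by time after Ifn-β in columns; dots mark called changes. S1pr1 (-2.31) and Abca1 (-1.36) are the darkest falls, both at 4 h, and Axl and Cd300lf are the only genes drawn with a call at 4, 8 and 24 h.

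Among other scavenger receptors, 1 of 16 measured was called at some time, and in the engulfment machinery 2 of 11 were. Over all transcript clusters the share was 9.12%. Of 16 further scavenger receptors only the lipoprotein receptor Lrp8 was called, lower at 8 h (-0.61) and 24 h (-0.68), and both calls were lost without any one of 10 arrays, all but 10 and 12 (adjusted p up to 0.241 and 0.211). The macrophage scavenger receptor Cd68 stayed between 13.14 and 13.34. Of 11 engulfment genes, Vav3, an exchange factor for Rac, was lower at 4 h (-0.70, adjusted p = 0.0156, lost without array 2, 15 or 16, up to 0.119). Elmo1, which acts with Dock proteins on Rac, was lower at 8 h (-0.60, adjusted p = 0.035), a call again lost without any of the same 10 arrays (up to 0.266).

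Among 11 measured genes that handle lipid after uptake, 2 were called higher at some time and 1 lower. The shares of all transcript clusters were 4.19% and 4.96%. The cholesterol exporters Abca1 and Abcg1 moved in opposite directions at 4 h, with Abca1 at 6.64 and 6.75 against 8.19 and 7.92 at 0 h (log2 change -1.36, SE 0.15, adjusted p = 9.94e-04) and Abcg1 at 11.35 and 11.39 against 10.45 and 10.38 (0.95, SE 0.11, adjusted p = 0.00133). At 8 h Abcg1 was still higher (0.91, adjusted p = 0.00375), while Abca1 read 8.30 and 8.22. Abcg1 was also called at 2 h (0.60, adjusted p = 0.0345), lost without any one array but array 12 (up to 0.171). Ch25h, which makes 25-hydroxycholesterol, was higher by 3.42 at 1 h, 3.68 at 2 h and 3.40 at 4 h (adjusted p = 4.70e-05 at 4 h), and its arrays were back at 6.18 and 5.55 (8 h) beside 6.51 and 6.05 (0 h). The other 8 measured lipid genes were not called.

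Of 12 measured regulators of macrophage receptor genes, 4 were called lower at some time (background 4.96%) and 1 higher (4.19%). Klf2, a transcription factor linked to quiescence, was lower from 1 to 8 h, with log2 changes of -0.95, -0.97, -0.88 and -0.74 (adjusted p = 0.0136, 0.00469, 0.0034 and 0.0204). Its calls at 1 h, lost without array 4, 5 or 8 (up to 0.11), and at 8 h, lost without array 4, 18 or 23 (up to 0.172), were the less stable. Of the related factors Mitf and Tfec, Mitf was lower at 4 h (-0.89, adjusted p = 0.00452) and Tfec higher at 2 h (0.95, adjusted p = 0.00634, lost without array 4, 0.0602). The nuclear receptor genes Pparg and Rxra were also lower at 4 h, Pparg (-0.65, adjusted p = 0.0342, lost without any of 10 arrays, all but 10 and 12, up to 0.206) and its partner Rxra (log2 change -0.60, adjusted p = 0.0213, lost without array 2, 4, 15 or 16, up to 0.127). Cd36, a known target of Pparg, was at 12.79 and 12.67 at that time, as given above.

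Soluble TAM receptors are released by surface proteases, of which ADAM proteins are the best known. Of 7 genes listed for this group 6 were measured, and Adam17 itself was the one without a cluster under its symbol alone. Only Rhbdf2, a regulator of the maturation of Adam17, was called, beside 4.19% of all transcript clusters called higher at some time. Its arrays read 7.78 and 7.67 (0 h), 8.76 and 8.65 (2 h), 8.85 and 8.98 (4 h). The log2 change was 0.98 at 2 h (adjusted p = 0.00204) and 1.19 at 4 h (adjusted p = 3.05e-04), and at 8 h the arrays read 7.82 and 7.87. Adam10 stayed between 10.27 and 10.48. Protein and shedding were not measured here.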

How the data were processed

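The authors deposited log2 values made by RMA in Affymetrix Expression Console at the core gene level (versions not given in the sources used here), 1 column per array, without pooling. They were used as deposited. RMA equalises probe intensities between arrays, so a change is relative to the other transcripts. There is no count depth, and precision rests on how many arrays there are. Of 23332 transcript clusters, 14996 had 1 symbol in the platform annotation, 1019 several and 7317 none.

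The 6 times were fitted as groups over 12 arrays with limma 3.58.1 (lmFit, eBayes; R 4.3.3; residual degrees of freedom 6), with 5 two-sided comparisons against 0 h, all 15 pairs of times and a moderated F test, each adjusted by Benjamini-Hochberg over all clusters. Pairs of times are said to differ at an adjusted p under 0.05. The fit was tried on simulated data with independent noise and known changes placed at 4 h. Such data cannot show the effect of dependence between arrays. All 10 receptors are given, and of each companion list at most 4 called genes per time and direction with arrays clear of both 0 h arrays, beside others named for their role. Receptors and lists were chosen with earlier results of these data known. Tables and plots used pandas 2.3.3 and matplotlib 3.10.9, and promoters come from RefSeq (GRCm38.p6).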

Additional observations from a re-analysis of the deposited data

How the results depend on the processing

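Under 21 alternatives (12 leaving out an array, 9 others), Axl at 4 and 8 h and Timd4 at 4 h kept their calls. The receptors called at 8 h numbered 1 when only the 2 groups compared were fitted, and at 24 h they numbered 1 at a 2-fold threshold, 0 with only the 2 groups and 1 with arrays centred on the median. Leaving out 1 array gave, in order of time, 0 to 0, 0 to 1, 2 to 3, 2 to 2 and 1 to 2 called receptors, and 2 to 4 passing the F test, with Mrc1 and Stab1 as those lost. Companion genes called numbered 3 to 5, 8 to 12, 14 to 20, 8 to 16 and 3 to 10 at the 5 times without 1 array, and 11 at 24 h by unadjusted p (7 by adjusted p). These counts include the interferon checks Ifit1, Irf7 and Mx1, which were listed as genes known to be induced. With all 12 arrays, these 3 were called higher at all 5 times. They were thus among the 5 companion genes called at 1 h and the 7 at 24 h, of 106 listed. Over all transcript clusters, 0.549% were called at 1 h and 1.45% at 24 h. Cd36 at 4 h (-0.04) changed sign, to 0.01 with centred arrays, 0.01 without array 2 and 0.02 without array 16. Over the omitted arrays it ranged from -0.10 to 0.02. Of 756 alternative values of further receptor changes from 0 h that were not called, 28 changed sign. These leave out Mertk at 2 h, Tyro3 at 1 h, Mrc1 at 24 h, and Msr1, Cd36, Marco and Scarb1 at 4 h, which were counted apart. Axl at 2 h went from 0.51 to 0.63 without array 12, past the fold threshold. Scaling moved the split of all calls at 8 h, with 73.3% higher as deposited and 61.7% after quantile normalization was applied again, and turned that at 4 h, with 47.6% higher as deposited, 56.1% after quantile normalization and 56.3% with centred arrays. The comparisons between treated times were put through the alternatives after their values were seen. No paired analysis was possible because the labels number the arrays without shared replicate numbers. Each time has 2 arrays, and a lone array is assumed to vary like the others.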

Other observations

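A further set of clearance genes was higher at 24 h than at 4 h without being called against 0 h; they were picked after their values were seen, and 8.60% of all transcript clusters passed the adjusted p in this comparison. Apoe, the apolipoprotein that carries exported cholesterol, read 11.58 and 11.56 (0 h), 11.23 and 11.41 (4 h), 12.14 and 12.13 (24 h). It was higher at 24 h than at 4 h by 0.82 (adjusted p = 0.00197). Cd300a, an inhibitory lipid-binding receptor, read 10.42 and 10.31 (0 h), 9.87 and 9.87 (4 h), 10.94 and 10.88 at 24 h (24 h against 4 h, 1.04, adjusted p = 0.00103). Sirpa, the receptor of Cd47, differed by 0.65 between the same times (adjusted p = 0.00447), with arrays at 11.28 and 11.30 (4 h) and 11.97 and 11.91 (24 h). These differences held without any single array. C1qc, a complement component that bridges dying cells, differed by 1.02 (adjusted p = 0.0194), lost without array 15, 16, 17 or 22. The related genes C1qa (0.07, adjusted p = 0.947) and C1qb (0.10, adjusted p = 0.882) did not pass in the same comparison.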
